A study of Mus musculus with 80 samples.

Results

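Axon guidance ligands and receptors were followed in mouse muscle stem cells (MuSCs) of the extraocular muscles (EOM), which move the eye, and of the tibialis anterior (TA), a muscle of the lower leg. The genes were chosen by symbol as the Slits and Robo1 to Robo3, the class 3 to 7 semaphorins, the neuropilins and plexins, the ephrins and Eph receptors, and the netrins with Dcc, Neo1 and the Unc5 receptors. The rule gave 69 of 25899 genes, of which 35 encode ligands and 34 encode receptors. Robo4, which is found mainly in blood vessels, was left out of the rule.

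MuSCs were sorted by GFP from male Tg:Pax7-nGFP donors, in which Pax7 regulatory sequence drives a nuclear GFP, on a C57BL/6;DBA2 F1/JRj background and at 7 or 7.6 weeks of age. Pre-graft libraries held 500 cells. The rest of the cells went into cardiotoxin-injured TA muscles of immunodeficient Rag2-/-;γC-/- hosts, EOM cells on one side and TA cells of the same donor on the other, so that both muscles' cells regenerated in a limb muscle, and GFP+ cells were sorted a second time for the post-graft libraries. The labels give day 21 for this second sort, the methods give 3 to 4 weeks, and the study's results give the upper end of that span. By the labels, post-graft libraries held 9 cells or more from EOM, with a median of 35, and 16 to 67 from TA, with a median of 26, but for 4 post-graft libraries the study's quality table gives a higher cell number than the label does. Of 40 RNA libraries from 10 donors in 2 experiments, 30 passed the study's quality control, namely 8 EOM and 8 TA before grafting and 7 EOM and 7 TA after it. The EOM pre-graft library of mouse 3 in Experiment 2 met the study's numeric limits. The study left it out as an outlier in its group. Ranges and overlaps below are of passing libraries alone. Only 1 post-graft library of each muscle comes from Experiment 1.

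Guidance ligands steer growing axons, migrating cells and vessel sprouts by attraction or repulsion. Slits are secreted and bind Robo receptors. Class 3 semaphorins are secreted and usually signal through a neuropilin that holds the ligand and a plexin that carries the signal across the membrane, whereas most other semaphorins stay on the membrane and bind plexins directly. Ephrins and Eph receptor tyrosine kinases signal in both directions where cells touch, and netrins bind Dcc, neogenin (Neo1) and the Unc5 receptors. In muscle, such ligands are known from the growth of motor axons to their targets, and neuropilins, ephrin-B2 and several plexins also have roles in blood vessels.

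The results turn on 4 genes in particular, and the 250 bases before their start sites are shown because 2 of them, Slit2 and Sema3d, carry the widest gaps between the muscles, and the other 2, Nrp2 and Sema7a, are among those that rose after grafting in both muscles. Sequences are from RefSeq on GRCm38.p6, all on the plus strand and 5′ to 3′, and capitals mark each match to CANNTG, the E-box that myogenic and other basic helix-loop-helix factors can bind. The windows are chr5:47982905-47983154 for Slit2, chr5:12382916-12383165 for Sema3d, chr1:62703067-62703316 for Nrp2 and chr9:57939862-57940111 for Sema7a.
Slit2: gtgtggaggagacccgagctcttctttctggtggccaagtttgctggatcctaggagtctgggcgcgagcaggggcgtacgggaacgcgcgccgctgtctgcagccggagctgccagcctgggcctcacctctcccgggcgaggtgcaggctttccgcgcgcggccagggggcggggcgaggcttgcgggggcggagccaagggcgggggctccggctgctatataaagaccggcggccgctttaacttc
Sema3d: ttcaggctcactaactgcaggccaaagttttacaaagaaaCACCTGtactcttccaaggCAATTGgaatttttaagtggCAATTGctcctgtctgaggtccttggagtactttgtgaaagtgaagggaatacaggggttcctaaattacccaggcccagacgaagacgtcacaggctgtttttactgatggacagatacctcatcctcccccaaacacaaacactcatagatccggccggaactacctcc
Nrp2: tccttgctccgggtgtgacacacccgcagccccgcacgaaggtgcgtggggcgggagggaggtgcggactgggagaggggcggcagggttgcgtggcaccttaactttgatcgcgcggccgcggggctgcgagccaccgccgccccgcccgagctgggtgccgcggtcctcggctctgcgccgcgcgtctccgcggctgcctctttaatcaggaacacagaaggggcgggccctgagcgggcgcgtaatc
Sema7a: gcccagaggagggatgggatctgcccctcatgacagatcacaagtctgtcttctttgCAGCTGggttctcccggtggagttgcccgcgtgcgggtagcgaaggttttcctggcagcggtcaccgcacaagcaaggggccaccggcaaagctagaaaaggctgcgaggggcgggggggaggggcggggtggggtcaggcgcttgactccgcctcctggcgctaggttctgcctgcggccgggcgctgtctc
The Slit2 window held no E-box and 69.6% G and C, whereas the Sema3d window held 3 E-boxes and 46.8% G and C. The Nrp2 window held no E-box and the Sema7a window held 1. Such a match occurred in 66.04% of the 27025 RefSeq promoters of this length and in 26 of the 59 guidance genes that had an entry (44.1%). Letter matches describe the windows and say nothing of binding in these cells.

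Expression was given as log2 RPM (reads of a gene scaled to library size), and differences below are differences of log2 RPM. Total reads ran from 3326270 to 14402975 per passing library. The 10 muscle stem cell markers summed to 14276 to 18701 RPM in EOM and 12195 to 22804 RPM in TA before grafting, and to 1253 to 14258 and 214 to 9435 RPM after it. Over the same groups the 10 endothelial markers summed to 97.1 to 850 and 17.1 to 2699 RPM before grafting and to 202 to 6059 and 1344 to 7364 RPM after it. Reads of mitochondrial genes made up 2.96 to 28.8% of gene reads before grafting and 5.59 to 81.1% after it. In all genes tested the median difference was -0.30 for TA minus EOM before grafting, -1.09 for TA grafts minus TA pre-graft and -1.48 for EOM grafts minus EOM pre-graft, so each count is also given after every library was centred on its median gene. The libraries are of pooled cells, so fewer cells that use a gene and less RNA of it per cell cannot be told apart.

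Before grafting, a few receptors and ligands held most of the guidance reads. The 10 genes with most reads, Sema6a, Plxna2, Neo1, Sema6d, Plxnb2, Ntn4, Sema3b, Plxnd1, Nrp1 and Robo1, took 64.5% of them. Per kilobase of exon, Sema6a, a transmembrane semaphorin that binds class A plexins, had the top median level in both muscles, at 43.8 RPM per kilobase in EOM and 42.7 in TA. Sema3b followed in EOM at 25.0 and Ntn5, a small netrin-family gene, in TA at 32.4 RPM per kilobase. Ntn4 stood at 20.2 and 24.3, and Plxna2, a receptor for Sema6a, at 15.4 and 12.8 RPM per kilobase in EOM and TA. In the post-graft libraries the order was different. Sema7a, a membrane-anchored semaphorin, led in TA grafts at 68.0 RPM per kilobase, and Nrp1 led in EOM grafts at 28.3, followed by Efna1 at 25.4 and Sema7a at 24.2. Sema6a stood at 12.2 and 18.4 RPM per kilobase in EOM and TA grafts.

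Before grafting, 8 guidance genes were higher in EOM MuSCs and none was higher in TA MuSCs. They were the ligands Slit2, Sema3d, Sema3b, Ntn1 and Efna5 and the receptors Epha3, Epha7 and Neo1. A gene was called at an adjusted p under 0.05 (limma with Benjamini-Hochberg adjustment over all genes tested) and a log2 difference beyond 1. Of the 69 genes, 53 passed the filter on low values and were tested here. Of the 13217 genes tested in all, EOM was higher in 3.31% and TA in 1.26% by the same criteria. After centring, 6 of the 8 were called and none in the other direction, where 2.08% and 1.77% of all genes were. The median difference of the guidance genes tested was -0.31, beside -0.30 for all genes.

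Slit2, the secreted Robo ligand, ranged from 3.16 to 6.47 log2 RPM in the 8 EOM libraries with a median of 4.56, which stands for 17 to 253 reads. In TA, 7 of 8 libraries held no Slit2 read and the eighth held 7 reads, at 1.92 log2 RPM. No TA library reached the lowest EOM library, and the difference of TA minus EOM was -5.14 ± 0.61 (SE, n = 8 and 8, limma adjusted p = 6.34e-06). It was -3.59 within Experiment 1 and -5.74 within Experiment 2. Sema3d, a secreted semaphorin known from neural crest and vessel patterning, ranged from 4.34 to 6.49 log2 RPM in EOM, with a median of 5.83 and 34 to 257 reads. In TA its reads ranged from 0 to 17 with a median of 0. The groups did not overlap and differed by -5.65 ± 0.59 (adjusted p = 1.39e-06), at -5.71 in Experiment 1 and -5.59 in Experiment 2. Slit2 and Sema3d were lower in TA in 7 of 7 donors with both muscles, and both were called under every one of the 14 alternatives and without any 1 of the 16 libraries.

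Sema3b, a secreted semaphorin that signals through neuropilins, was read deeply in both muscles. It ranged from 6.32 to 7.71 log2 RPM with a median of 6.90 in EOM and from 4.77 to 6.12 with a median of 5.43 in TA. The groups lay side by side without overlap, at a difference of -1.51 ± 0.23 (adjusted p = 0.000155). Ntn1, the netrin that both attracts and repels axons, ranged from 3.63 to 5.66 log2 RPM with a median of 5.28 in EOM and from -1.14 to 3.32 with a median of 2.57 in TA. All TA values lay under all EOM values, and the difference was -2.95 ± 0.57 (adjusted p = 0.00199). Efna5, a lipid-anchored ephrin and a ligand of EphA receptors, had 3 to 95 reads in EOM with a median of 14, and in TA 29 and 16 reads in the libraries of mice 3 and 2 of Experiment 2, 1 read in a further library and none in the other five. The groups overlapped at a difference of -2.59 ± 0.79 (adjusted p = 0.0475), which lost its call after centring (-2.35, adjusted p = 0.104) and in 13 of 16 fits without 1 library.

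Among the receptors, Epha7 ranged from 3.84 to 5.10 log2 RPM with a median of 4.09 in EOM, on 24 to 65 reads, and from -1.14 to 1.87 with a median of 1.41 in TA, on 0 to 9 reads. The groups did not overlap and differed by -3.16 ± 0.50 (adjusted p = 0.000228). Epha3, like Epha7 a receptor tyrosine kinase for lipid-anchored ephrins, had 0 to 29 reads in EOM with a median of 14.5 and no read in any of the 8 TA libraries. Counted over each group's pooled reads, Epha3 was at least 30.9-fold higher in EOM, with 3 reads over the TA group as the floor, although the EOM library of mouse 2 in Experiment 2 also held none (limma -3.14 ± 0.70, adjusted p = 0.00639). Neo1, which binds netrins and the repulsive guidance molecules, ranged from 6.83 to 7.95 log2 RPM with a median of 7.15 in EOM and from 4.65 to 6.75 with a median of 6.44 in TA. The Neo1 groups touched without overlap at -1.16 ± 0.26 (adjusted p = 0.00579), and the difference fell under the fold limit after centring (-0.92) and when the TA library of mouse 1 in Experiment 2 was left out.

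Robo1, the receptor of Slit2, was high in both muscles, at 5.60 to 6.93 log2 RPM (median 6.69) in EOM and 4.79 to 6.07 (median 5.77) in TA. It was lower in TA by 0.92 on the log2 scale with an adjusted p of 0.0172, under the fold limit. Sema4d, a membrane semaphorin that binds Plxnb1, was not called at -2.69 (adjusted p = 0.0745) and was called with the donor mouse as a block (-2.39 ± 0.65, adjusted p = 0.0330), the only call in this comparison that the block changed.

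**Figure D1:**
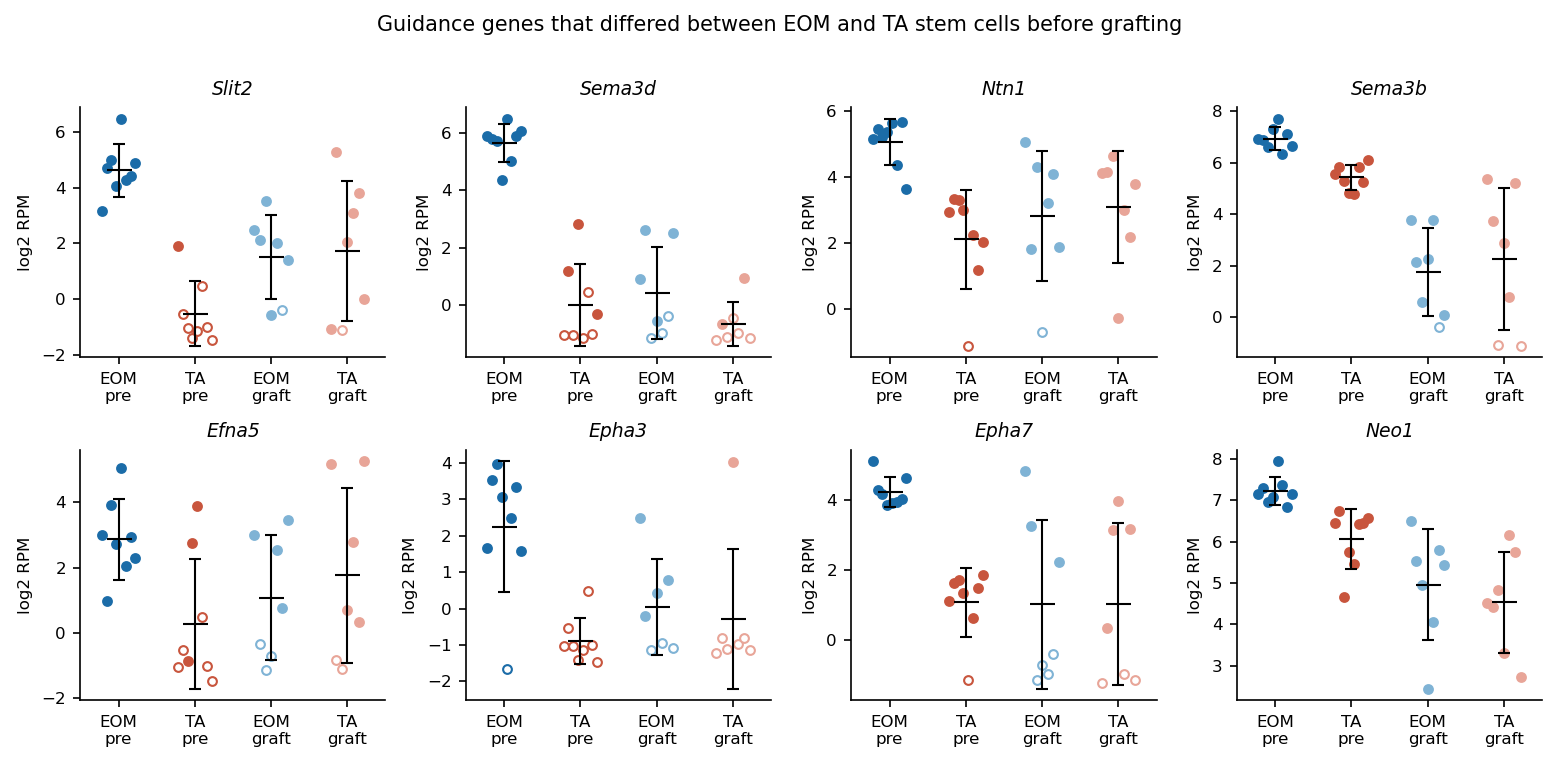
Log2 RPM of the 8 guidance genes that differed between EOM and TA before grafting, in the 4 groups of libraries. Points are libraries, open circles are libraries with 0 reads of the gene, and black bars are the mean ± SD. Slit2, Sema3d, Sema3b, Ntn1, Epha7 and Neo1 do not overlap between the EOM and TA pre-graft groups, and Sema3d in EOM falls from 4.34 log2 RPM or more before grafting to 2.62 or less after it.

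Markers of other cell types differed between these libraries as well. The 7 oligodendrocyte markers summed to 16.2 to 3761 RPM (median 474) in EOM and to 1.51 to 185 RPM (median 17.1) in TA pre-graft libraries, with 2 of the 7 at 0 in each group. Mobp and Mbp had the highest medians in EOM, 134 and 336 RPM, and the study counts Mobp among genes up-regulated in EOM MuSCs. Mag had medians of 1.96 RPM in EOM and 11.9 in TA, and Cldn11 of 0.19 and 0. Mog, Opalin and Ermn had a median of 0 in both. Schwann cell markers reached 3783 RPM in EOM and 1094 RPM in TA, and fibro-adipogenic markers ranged from 1454 to 3712 and from 1320 to 2443 RPM. In the EOM library of mouse 4 in Experiment 2, where the oligodendrocyte sum was at its lowest of 16.2 RPM, Slit2 stood at 19.2 RPM and Sema3d at 32.8 RPM. The TA library of mouse 2 in Experiment 2 held 2413 reads of the fibroblast gene Dcn, while the other TA libraries held 0 to 3, and this library had 17 reads of Sema3d and 0 of Slit2. All 8 EOM pre-graft libraries held Dcn, on 49 to 1314 reads with a median of 112.5. Of 7 fibro-adipogenic markers tested between the muscles, 3 were called higher in EOM and 0 in TA. The fibro-adipogenic list was not used to leave libraries out. Among the lists used, the EOM library of mouse 6 in Experiment 2 passed 1000 RPM for oligodendrocyte markers alone. Without the 4 EOM and 3 TA libraries in which endothelial, Schwann cell, oligodendrocyte or macrophage markers passed 1000 RPM, 5 of the 8 genes were called. Slit2 then differed by -4.19 (adjusted p = 0.0125) and Sema3d by -5.94 (adjusted p = 0.00068), while Ntn1 at -3.45 (adjusted p = 0.0501), Neo1 at -0.85 and Efna5 at -1.87 were not called. The part of other cell types in the differences between the muscles was not tested.

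In TA cells, 13 guidance genes were lower and 4 were higher after grafting than before. Robo1 had the widest fall among them, and Nrp2, Sema7a, Sema3f and Nrp1 rose. Of 53 genes tested, the 13 lower ones stand beside 30.9% of all 13076 genes tested, and the 4 higher ones beside 3.79%. After centring on the median gene, 2 were lower, Robo1 and Ntn5, and 11 were higher, while 5.68% and 7.67% of all genes were. The median of the guidance genes was -0.04, beside -1.09 for all genes. Among all genes, 10.9% of the calls were higher before centring and 57.4% after it.

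Robo1 ranged from 4.79 to 6.07 log2 RPM in TA before grafting and from -1.22 to 3.87 with a median of -0.81 after it. Read counts were 41 to 148 before grafting, and after grafting 3 of 7 libraries had no read, 3 had 1, 2 and 3 reads, and the library of mouse 5 in Experiment 2 had 23. No post-graft library reached the pre-graft range, and the change was -5.42 ± 0.78 (adjusted p = 0.000172), or -4.53 after centring (adjusted p = 0.000766). The change was called under all 15 alternatives and without each library in turn, and it was -7.15 in Experiment 1, with 1 post-graft library, and -5.08 in Experiment 2.

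The other 12 genes that were lower in TA grafts were netrins, semaphorins, plexins, Eph receptors and Neo1. Ntn5 fell from 5.30 to 6.62 log2 RPM to -1.06 to 5.54 (-3.48 ± 0.81, adjusted p = 0.00403), but 519 bases, or 23.4% of its exon length, overlap Sec1 on the opposite strand, and the libraries were read without strand. Sema3b fell by 3.19 on the log2 scale (adjusted p = 0.00936) and Plxna3, a plexin that serves class 3 semaphorins, by 3.18 (adjusted p = 0.00926). The EphB receptors Ephb3 and Ephb6, the latter without an active kinase, changed by -3.01 (adjusted p = 0.0165) and -3.02 (adjusted p = 0.0202). Sema6a changed by -1.59 (adjusted p = 0.0109), and Plxnb2, the plexin of class 4 semaphorins, by -2.17 (adjusted p = 0.0183). Sema6c, Sema4b, Neo1, Epha4 and Ntn4 completed the list at -2.36, -2.29, -1.54, -1.30 and -1.25, with adjusted p from 0.0203 to 0.0426. Robo1 and Ntn5 apart, none of these was called after centring, when their differences lay between -0.35 and -2.29. With the donor as a block, Sema6c (adjusted p = 0.0619), Epha4 (0.0662) and Ntn4 (0.0634) were not called.

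In EOM cells, 21 guidance genes were lower and 6 were higher after grafting. The EOM pre-graft libraries are those compared with TA before, so the values of genes named in both comparisons rest in part on the same libraries. Of 56 genes tested, the 21 lower ones stand beside 55.8% of all 13094 genes tested and the 6 higher ones beside 3.51%. After centring, 5 were lower, Sema3b, Sema3d, Plxna3, Robo1 and Ephb6, and 9 were higher, against 4.84% and 6.65% of all genes. The median of the guidance genes was -1.17, beside -1.48 for all genes. Of all calls, 5.93% were higher before centring and 57.9% after it. With the donor as a block, 17 genes were called, since 10 of the 27 calls were lost and none was gained.

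Sema3d ranged from 4.34 to 6.49 log2 RPM in EOM before grafting and from -1.14 to 2.62 with a median of -0.38 after it, on 0 to 11 reads. The groups did not overlap and the change was -5.22 ± 0.68 (adjusted p = 4.92e-05), or -3.97 after centring (adjusted p = 0.000303). Sema3b ranged from 6.32 to 7.71 before and from -0.38 to 3.79 with a median of 2.13 after grafting. All post-graft values lay under all pre-graft values at -5.19 ± 0.61 (adjusted p = 1.65e-05), or -3.94 after centring (adjusted p = 0.000312). The changes of Sema3b and Sema3d were called under all 15 alternatives and without each library in turn. Slit2 ranged from -0.56 to 3.54 log2 RPM with a median of 2.01 after grafting, on 0 to 23 reads, and changed by -3.10 ± 0.70 (adjusted p = 0.00183). The Slit2 change was -1.85 after centring (adjusted p = 0.0601) and -2.62 without the 4 pre-graft libraries rich in other cell types (adjusted p = 0.0565).

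Epha7, Epha3, Ntn1 and Neo1 were lower in EOM grafts as well. Epha7 changed by -3.21 (adjusted p = 0.00446), with 5 of 6 donors lower and the post-graft library of mouse 4 in Experiment 1 at 4.82 log2 RPM inside the pre-graft range. In Neo1 the groups did not overlap at -2.27 (adjusted p = 0.000975). Ntn1 changed by -2.25 (adjusted p = 0.0121) and Epha3 by -2.20 (adjusted p = 0.0263), and with the donor as a block neither was called (adjusted p = 0.0741 and 0.0661). After centring these 4 genes changed by between -0.95 and -1.96, and none of them was called.

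Robo1 ranged from 0.44 to 5.89 log2 RPM with a median of 4.02 in EOM grafts, against 5.60 to 6.93 before grafting. The ranges overlapped through the library of mouse 4 in Experiment 1 alone, and the change was -2.82 ± 0.57 (adjusted p = 0.000956), or -1.58 after centring (adjusted p = 0.0336). Plxna3 changed by -4.07 (adjusted p = 0.000758), Ephb6 by -3.66 (adjusted p = 0.00247), Ephb3 by -3.17 (adjusted p = 0.00308), Plxnb2 by -1.92 (adjusted p = 0.00308) and Sema6a by -1.65 (adjusted p = 0.000419). Of 50 guidance genes tested in both graft comparisons, 10 were called lower in both and 4 higher in both, beside 26.9% and 1.91% of the 12467 genes tested in both. These comparisons share donors but no library. The remaining lower calls in EOM were Sema6c (-2.79), Sema4d (-3.04), Sema4f (-3.26), Sema4a (-2.28), Plxna1 (-2.20), Plxnb1 (-2.18), Plxnc1 (-1.65) and Ntn5 (-1.78), with adjusted p from 0.00459 to 0.0463. Of these, Sema4d, Sema4a, Plxna1, Plxnb1, Plxnc1 and Ntn5 were not called with the donor as a block (adjusted p = 0.0775, 0.207, 0.139, 0.0787, 0.156 and 0.0721). Plxna1 shares 970 exon bases (10.7%) with an antisense gene, Gm26811. Within Experiment 1, with 1 EOM post-graft library, Ephb6 (0.88), Plxnb2 (0.67), Sema4f (0.67), Plxnb1 (0.47) and Epha7 (0.31) were higher after grafting. The other genes called lower in EOM were lower in both experiments.

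**Figure D2:**
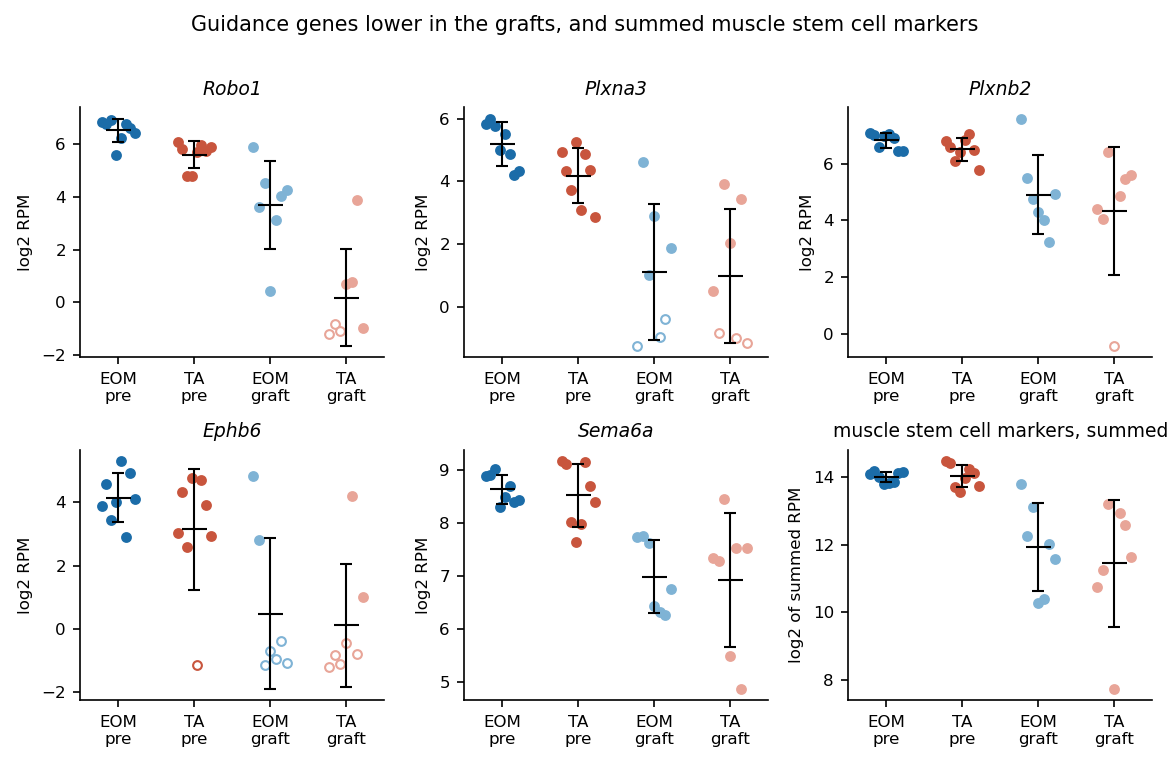
Log2 RPM of 5 guidance genes that were lower after grafting in both muscles, with the log2 of the summed RPM of 10 muscle stem cell markers in the last panel. Points are libraries, open circles are libraries with 0 reads, and black bars are the mean ± SD. Robo1 in TA grafts lies at 3.87 log2 RPM or less, under every pre-graft library, and after centring on the median gene Robo1 was called in both muscles, Plxna3 and Ephb6 in EOM, and Plxnb2 and Sema6a in neither.

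The summed muscle stem cell markers were lower in the same libraries, with medians of 16970 and 17066 RPM before and 4218 and 3225 RPM after grafting in EOM and TA. In the EOM graft of mouse 4 in Experiment 1, the markers summed to 14258 RPM, the highest of the grafts, and this library also had the highest Robo1 of the grafts, at 5.89 log2 RPM, and the highest Sema3b of the EOM grafts, at 3.79. Sema3d in that library was 0.91 log2 RPM and Slit2 was 2.499. The part of these markers in the results was not tested. Without the 3 EOM and 1 TA post-graft libraries in which over 50% of gene reads were mitochondrial, 16 genes were called in each comparison, and Sema3d (-4.42), Sema3b (-5.30) and Robo1 (-1.94) remained called in EOM, as did Robo1 (-5.51) in TA. In EOM 12 of the 27 calls were lost without them, among these Epha7 (-1.94, adjusted p = 0.0747), Epha3, Ntn5, Plxnb1, Plxnc1, Sema4a, Sema4d and Sema4f, and in TA the call of Ntn4 was lost. The share of all genes called in these fits is not given here.

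Nrp1, Nrp2, Sema3f and Sema7a were called higher after grafting in both muscles. Within Experiment 1, with 1 EOM post-graft library, Nrp1 rose by 1.19 in EOM. There Nrp2, Sema3f and Sema7a changed the other way, by -3.82, -1.62 and -4.52. Within Experiment 2 the EOM changes were 4.25 for Nrp1, 5.66 for Nrp2, 3.09 for Sema3f and 6.45 for Sema7a. Nrp1 and Nrp2 are coreceptors of class 3 semaphorins and of vascular endothelial growth factors, and Sema3f is a secreted ligand that binds Nrp2. Nrp2 ranged from 0.48 to 5.24 log2 RPM in TA before grafting and from 5.84 to 7.38 after it. The groups did not overlap and the change was 3.24 ± 0.60 (adjusted p = 0.000985), called under all 15 alternatives. In EOM, Nrp2 ranged from -1.56 to 6.09 (median 1.14) before and from -1.24 to 7.16 (median 6.52) after grafting. It overlapped through the 195 reads of the pre-graft library of mouse 2 in Experiment 2 and the 0 reads of the post-graft library of mouse 4 in Experiment 1, and changed by 3.83 ± 1.26 (adjusted p = 0.0143). Without the 3 EOM grafts of mostly mitochondrial reads, the EOM changes of Nrp2 (3.48, adjusted p = 0.0985), Sema7a (3.34, adjusted p = 0.101) and Sema3f (2.23, adjusted p = 0.0927) were not called, and that of Nrp1 was.

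Nrp1 ranged from 3.47 to 8.14 log2 RPM (median 5.95) in TA before and from 6.93 to 9.18 (median 7.91) after grafting. It rose by 1.94 ± 0.55 (adjusted p = 0.0119), in 6 of 7 donors. In EOM it ranged from 0.59 to 6.77 (median 3.84) before and from 6.002 to 8.43 (median 8.11) after grafting, and rose by 3.53 ± 0.76 (adjusted p = 0.00145), called under all 15 alternatives. Nrp1 had 136 to 616 reads in EOM grafts and 171 to 1213 in TA grafts, among the deepest counts of these genes. Sema7a ranged from -1.14 to 6.43 (median 0.84) in TA before and from 4.91 to 8.31 (median 7.81) after grafting, and rose by 4.80 ± 1.10 (adjusted p = 0.00365), in 7 of 7 donors. In EOM it went from a median of 1.12 to a median of 6.32 log2 RPM, a change of 4.10 ± 1.23 (adjusted p = 0.00906). In Sema7a, 3 TA pre-graft libraries lay inside the range of the grafts. Sema3f rose by 3.20 ± 0.89 in TA (adjusted p = 0.0105), from 0 to 60 reads before to 14 to 133 reads after grafting, and was called under all 15 alternatives. In EOM it changed by 2.48 ± 0.96 (adjusted p = 0.0313), with 2 of 7 grafts at 0 reads, and was not called with the donor as a block (adjusted p = 0.115).

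Epha2, an EphA receptor found in epithelia and vessels, and Plxna4 were called higher in EOM grafts and not in TA grafts, where they changed by 0.38 (adjusted p = 0.552) and 2.20 (adjusted p = 0.0974), and the difference between these changes was not called for either (adjusted p = 0.696 and 0.966). Epha2 ranged from 1.69 to 5.66 log2 RPM (median 3.40) before and from 4.23 to 6.43 (median 6.19) after grafting, a change of 1.999 ± 0.62 (adjusted p = 0.0110), and was not called with the block (adjusted p = 0.102). In TA its median went from 5.10 to 6.04. Plxna4 had 0 to 13 reads before and 0 to 26 after grafting and changed by 2.58 ± 0.79 (adjusted p = 0.0101), which was not called without the EOM grafts of mostly mitochondrial reads (2.19, adjusted p = 0.0836). The Plxna4 change was -1.56 within Experiment 1, with 1 post-graft library, and 3.67 within Experiment 2. The calls that came only with centring were Slit2 (3.14, adjusted p = 0.0340), Slit3, Sema5a, Sema6b, Efna1, Unc5b and Unc5d in TA, and Efna1, Robo2 and Unc5b in EOM. Without centring Slit2 changed by 2.24 ± 0.90 in TA (adjusted p = 0.0544), from a read in 1 of 8 libraries to 0 to 61 reads.

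**Figure D3:**
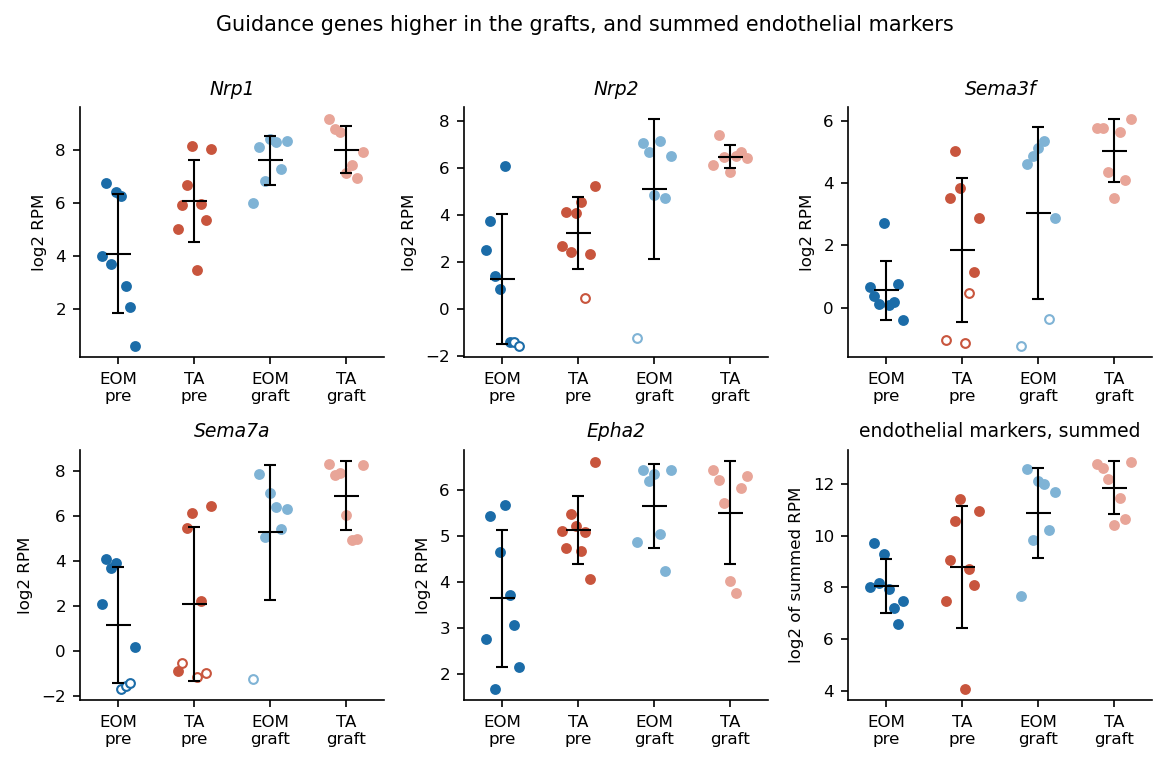
Log2 RPM of Nrp1, Nrp2, Sema3f, Sema7a and Epha2 in the 4 groups, with the log2 of the summed RPM of 10 endothelial markers in the last panel. Points are libraries, open circles are libraries with 0 reads, and black bars are the mean ± SD. TA grafts lie at 5.84 log2 RPM or more for Nrp2, above every TA pre-graft library, and the EOM graft with the lowest endothelial sum (202 RPM) is an open circle in the Nrp2 and Sema7a panels.

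Endothelial marker sums were high in some of the libraries that were high in these genes and not in others. The EOM graft of mouse 4 in Experiment 1 had an endothelial sum of 202 RPM where the other EOM grafts had 908 to 6059 RPM, and it held no read of Nrp2, Sema3f or Sema7a and the lowest Nrp1 of the grafts, 64.1 RPM. Its low endothelial sum cannot be told apart from its experiment, cell number or low mitochondrial share. Before grafting, the TA libraries of mice 1, 2 and 6 in Experiment 2 had endothelial sums of 1491, 2699 and 1990 RPM, and the other TA libraries had 17.1 to 533 RPM. These 3 libraries had the highest Sema7a of the pre-graft TA group, at 43.8, 70.6 and 86.0 RPM, and the highest Nrp1, at 102, 282 and 260 RPM. Their Nrp2 was 5.48, 16.8 and 37.7 RPM, beside 0 to 23.7 RPM in the other TA libraries. In EOM before grafting, the highest Nrp2, 68.2 RPM in the library of mouse 2 in Experiment 2, stood beside an endothelial sum of 247 RPM, while the library with the highest endothelial sum, 850 RPM, had 13.6 RPM of Nrp2. The EOM library of mouse 2 also had the highest macrophage and Schwann cell sums of its group, at 1793 and 3783 RPM. Every one of the 10 endothelial markers had reads in at least 1 library of each of the 4 groups. In the EOM pre-graft library of mouse 5 in Experiment 2, 9 of the 10 had no read, and its sum of 97.1 RPM was of Tek. Across grafting, the 7 pericyte and smooth muscle markers went from 652 to 1951 RPM (median 1215) to 711 to 6216 RPM (median 2970) in TA, and from 857 to 1170 RPM (median 1042) to 532 to 5019 RPM (median 2119) in EOM. The medians of the summed 8 fibro-adipogenic markers went from 1513 to 2174 RPM in TA and from 2603 to 1539 RPM in EOM, and those of the 8 myofibre markers from 131 to 229 RPM and from 31.0 to 312 RPM. Dpt had the highest pre-graft medians of the fibro-adipogenic markers. It went from 1322 to 276 RPM in TA and from 2343 to 446 RPM in EOM. Of 7 fibro-adipogenic markers tested across grafting in TA, 4 were called higher and 1 lower. Of 8 tested in EOM, 1 was called higher and 3 lower. The part of these lists in the rise of the neuropilins, Sema3f and Sema7a was not tested. Without the 3 TA pre-graft libraries, the rises in TA were 2.86 for Nrp1, 3.64 for Nrp2, 4.44 for Sema3f and 7.15 for Sema7a, all of them called. Those libraries held the highest pre-graft Sema7a and Nrp1, so wider rises of these genes follow from leaving them out. The grafts were the same in that fit, so it says nothing of other cell types in the grafts.

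After grafting, no guidance gene was called between TA and EOM cells. Of 12377 genes tested, 0% were called by limma, with 452 at an unadjusted p under 0.05, and edgeR called 0 and DESeq2 called 3 genes, no guidance gene among them. Of 48 guidance genes tested, Robo1 and Sema3f had an unadjusted p under 0.05. Robo1 was lower in TA grafts by 3.52 on the log2 scale, with a 95% interval from -5.72 to -1.32 (adjusted p = 0.9999), and was lower in TA in 5 of 6 donors. It was called when all 4 groups were fitted at once (adjusted p = 0.0451), the only alternative that called a guidance gene here. For the genes that differed before grafting, the TA minus EOM difference in the grafts was 0.20 for Slit2 (95% interval -2.07 to 2.48), 0.50 for Sema3b (-1.89 to 2.89), 0.02 for Epha7 (-2.25 to 2.29), 0.27 for Ntn1 (-1.87 to 2.41), -0.43 for Neo1 (-1.90 to 1.04) and 0.68 for Efna5 (-1.65 to 3.02). These intervals leave room for differences of more than 1 in size, and Sema3d and Epha3 were too low to be tested.

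The change on grafting was called as different between the muscles for Sema3d and Slit2, and few alternatives kept these calls. The EOM change minus the TA change was -4.56 ± 0.999 for Sema3d (adjusted p = 0.0377) and -5.34 ± 1.20 for Slit2 (adjusted p = 0.0434). Among 14428 genes tested, 0.152% were called in this direction, and 62 guidance genes were tested. In reads, Sema3d went from 34 to 257 to 0 to 11 in EOM and from 0 to 17 to 0 to 3 in TA, and Slit2 went from 17 to 253 to 0 to 23 in EOM and from 0 to 7 to 0 to 61 in TA. The pre-graft libraries are those of the comparison between muscles above, so this is not separate evidence. Both genes lay near the floor in TA before grafting, so a fall in TA could hardly be seen. The gap between the muscles before grafting thus enters the difference of the changes. With the donor as a block neither was called (adjusted p = 0.137 and 0.165), nor after centring (adjusted p = 0.0562 and 0.0794). Sema3d kept its call in 15 and Slit2 in 9 of the 30 fits without 1 library. Of the 14 other alternatives, 3 kept the call of Sema3d and 4 that of Slit2.

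**Figure D4:**
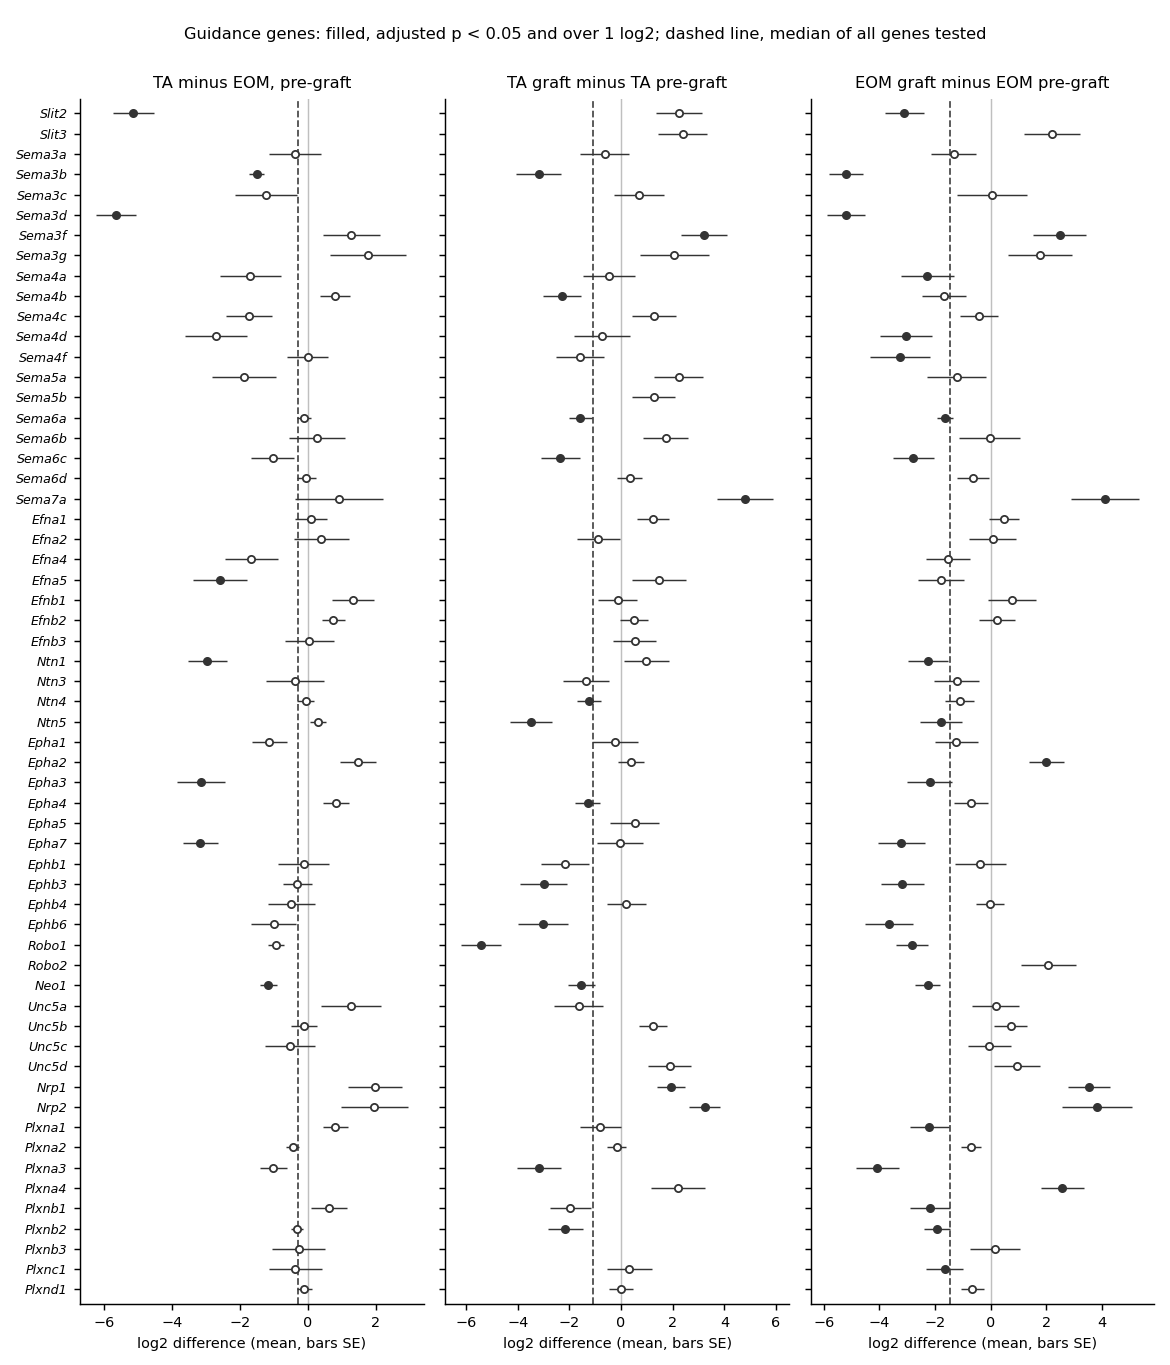
Log2 differences of the guidance genes tested, ligands above receptors, for TA minus EOM before grafting and for post-graft minus pre-graft in each muscle, with the SE as bars. Filled points are called genes, open points were not called, and the dashed line is the median of all genes tested, at -0.30, -1.09 and -1.48. Nrp1, Nrp2, Sema3f and Sema7a lie above 0 in both grafts, and every gene called lower lies further below 0 than the dashed line.

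Genes that act with or after these receptors were read from a list of 60, of which 59 were measured. Before grafting, Rnd1, a small GTPase that acts on plexins, was higher in TA (2.94, adjusted p = 0.0174), and Dpysl3, a semaphorin response mediator (-2.90, adjusted p = 0.0103), and Flrt1, of a family of adhesion proteins that bind Unc5 receptors (-3.15, adjusted p = 0.00878), were higher in EOM, of 54 tested, where 1.26% and 3.31% of all genes were called. After grafting, 16 of 53 were lower and 4 higher in TA, beside 30.9% and 3.79% of all genes, and 21 of 53 were lower and 2 higher in EOM, beside 55.8% and 3.51%. After centring, 1 was lower and 9 higher in TA, beside 5.68% and 7.67%, and 1 was lower and 6 higher in EOM, beside 4.84% and 6.65%. Robo4, the vessel receptor left out of the rule, was higher in both (3.19 in TA, adjusted p = 0.0177, and 4.86 in EOM, adjusted p = 0.00353). The cytoskeletal regulators Rhoa and Cfl1 were called lower in both muscles, at -1.25 and -1.04 in TA and -1.55 and -1.17 in EOM, and after centring at -0.36, -0.14, -0.30 and 0.08 they were not. Dpysl3 (3.11, adjusted p = 0.00625), Rnd2 (2.48, adjusted p = 0.0322) and Rnd1 (1.99, adjusted p = 0.00998) also rose in TA grafts, and Mical2, an enzyme that oxidises actin, rose in EOM grafts (2.42, adjusted p = 0.0147). The other lower calls in TA were Flrt2 (-3.28), Mical1 (-3.20), Rgma (-2.63), Vav2 (-2.57), Pick1 (-2.39), Dpysl5 (-2.37), Rgmb (-2.30), Pak1 (-2.10), Mical3 (-2.04), Rnd3 (-1.76), Vav3 (-1.65), Grb10 (-1.55), Arhgef11 (-1.35) and Rock2 (-1.26), with adjusted p from 0.00121 to 0.0420. Of these, Rgmb, a ligand of Neo1, was called after centring (-1.41, adjusted p = 0.00263). In EOM they were Dpysl5 (-3.72), Rgma (-3.04), Flrt1 (-2.76), Mical1 (-2.64), Mical3 (-2.54), Limk2 (-2.52), Farp2 (-2.47), Dpysl4 (-2.46), Gipc1 (-2.16), Limk1 (-2.14), Abl1 (-2.09), Vav3 (-1.94), Tiam1 (-1.88), Grb10 (-1.88), Rgmb (-1.80), Arhgef11 (-1.34), Dpysl2 (-1.33), Arhgef12 (-1.20) and Fyn (-1.14), with adjusted p from 0.000364 to 0.0394. Of these, Dpysl5 was called after centring (-2.47, adjusted p = 0.0179). No gene of the list was called between the grafts or in the difference of the changes.

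The remaining guidance genes were not called in any comparison. Plxna2, Plxnd1 and Sema6d were among the 10 with most reads, at median log2 RPM of 8.04, 6.55 and 6.76 in EOM and 7.77, 6.45 and 6.85 in TA before grafting, and at 7.63, 5.66 and 6.58 and 7.78, 6.22 and 7.60 after it. Plxna2 pairs with Sema6a and Plxnd1 is the plexin of Sema3e in vessels. The ligands Efna1, Efna2, Efna4, Efnb1, Efnb2, Efnb3, Ntn3, Sema3a, Sema3c, Sema3e, Sema3g, Sema4c, Sema5a, Sema5b, Sema6b, Slit1 and Slit3 and the receptors Epha1, Epha10, Epha5, Ephb1, Ephb4, Plxnb3, Robo2, Unc5a, Unc5b, Unc5c and Unc5d were tested in at least 1 comparison and not called. Sema3e had no read in the 8 TA pre-graft libraries and 41 reads in TA grafts, all of them in the library of mouse 5 in Experiment 2. Sema5b had no read in the 7 EOM grafts and 38, 10 and 8 reads in 3 of the 7 TA grafts. Dcc, Efna3, Epha6, Epha8, Ephb2, Robo3 and Sema4g passed no filter, with at most 11 reads in any library, and Epha8 had no read at all. At this depth an absent read does not show that a gene is off.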

How the data were processed

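RNA was read by G&T-seq from 40 libraries of EOM and TA MuSCs, and the 40 bisulfite libraries were not analysed here. The authors trimmed reads with Trim Galore 0.4.4, aligned them to GRCm38 with HISAT2 2.1.0 and scaled them in Seqmonk. Per the methods, the table deposited by the authors holds log2 RPM, 1 column per library. What RPM was scaled to, the annotation release and the counter are not given in the sources used here, and reads were counted without strand. The deposited library tables hold read counts and percent of reads in genes, exons and mitochondrial genes. A value of 0 reads stands at 0.9 of a read, and reads recovered on that basis were whole within 0.1 for 99.9969% of values, with 15 not.

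The values of 25899 genes were compared with limma 3.58.1 (R 4.3.3), using its intensity trend. A gene was tested where at least 4 compared libraries exceeded log2 RPM 1. Tests are two-sided with Benjamini-Hochberg adjustment over all genes tested, and calls need an adjusted p under 0.05 and a log2 difference beyond 1. edgeR 4.0.16 and DESeq2 1.42.0 were run on the recovered reads as alternatives. Groups come from the labels, and libraries follow the study's quality table. The 10 libraries that did not pass enter only the alternative with all libraries. The scripts were tested on simulated data. The guidance genes, the partner list and the marker lists were chosen with earlier results of these data known. Values were given for genes called in a comparison, for genes whose groups do not overlap, and for the 10 with most pre-graft reads. Genes of the partner list were named where called. Exon lengths are from GENCODE M21 for 68 of 69 genes. Same-numbered libraries of an experiment come from the same donor mouse, so donors pair the samples. Their deviations from the group means correlated at a median of 0.070 over 7 donors for the muscles before grafting, 0.0081 over 7 for TA and -0.040 over 6 for EOM across grafting, and 0.039 over 6 between grafts. The sources used here name no donor term for the study's own test, so comparisons were fitted without one and the donor block was an alternative.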

Additional observations from a re-analysis of the deposited data

Results flagged for a closer look

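Dixon's test, which chance passes in about 1 of 20 groups, marked 1 library as far from the rest in 17 of 123 groups of named genes. The gap of the library to its nearest neighbour is given as a share of the group's whole range. In EOM before grafting, the library of mouse 2 in Experiment 2 was lowest for Epha3 (0.578, 0 reads) and Sema4d (0.638, 5 reads), that of mouse 1 in Experiment 2 was highest for Ntn5 (0.538, 166 reads) and Sema3f (0.629, 11 reads), and that of mouse 5 in Experiment 1 was highest for Plxna4 (0.718, 13 reads). In TA before grafting, mouse 3 in Experiment 2 was lowest for Epha7 (0.589) and Ephb6 (0.631), both at 0 reads, and mouse 1 in Experiment 2 for Sema4f (0.576, 9 reads) and Sema6c (0.566, 0 reads). In EOM grafts, mouse 4 in Experiment 1 was lowest for Nrp2 (0.711) and Sema7a (0.693), both at 0 reads. In TA grafts, mouse 3 in Experiment 2 was highest for Epha3 (0.921, 20 reads) and lowest for Plxnb2 (0.651, 0 reads), mouse 4 in Experiment 2 was highest for Ephb6 (0.587, 32 reads), mouse 5 in Experiment 2 for Robo1 (0.609, 23 reads) and Sema3d (0.638, 3 reads), and mouse 6 in Experiment 2 was lowest for Plxna1 (0.594, 0 reads).

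The change on grafting was called as different between EOM and TA, by -4.56 for Sema3d and by -5.34 for Slit2, in the limma test of the difference itself (adjusted p = 0.0377 and 0.0434). Both genes lay near the floor in TA before grafting, so a fall in TA could hardly be seen. With the donor as a block neither was called (adjusted p = 0.137 and 0.165), nor after centring (0.0562 and 0.0794), and without 1 library Sema3d kept its call in 15 and Slit2 in 9 of 30 fits.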

How the results depend on the processing

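Over the named genes and the alternatives other than leaving out 1 library, 522 values kept their direction and their call, 268 kept the direction without a call and 2 turned, namely Ntn5 in EOM grafts with edgeR (0.139) and DESeq2 (0.216). The cause of the changes below was not tested. Before grafting, 8 genes were called, with 3 from all libraries, 5 when 4 groups were fitted at once and 5 without pre-graft libraries rich in another cell type. For TA grafts, 17 were called, with 7 in Experiment 2 alone, 9 by edgeR and 10 with the replicate block and centring together. For EOM grafts, 27 were called, with 17 under the replicate block of the donor mouse, 14 scaled without mitochondrial genes, 14 centred, 12 by edgeR, 16 by DESeq2, 4 with the block and centring, and 16 without grafts of mostly mitochondrial reads. Before grafting edgeR called 1 gene higher and 6 lower in TA, and DESeq2 2 and 6. Of all 13217 genes tested, edgeR called 247 higher and 191 lower in TA, and DESeq2 323 and 259. edgeR called 8 genes higher and 1 lower in TA grafts and 9 and 3 in EOM grafts, and DESeq2 16 and 1, and 12 and 4, and without mitochondrial genes in the scaling 10 and 2, and 7 and 7. Over all genes, edgeR called 782 higher and 402 lower of 13076 in TA grafts and 907 and 380 of 13094 in EOM grafts. DESeq2 called 1151 and 545, and 1196 and 546, and scaling without mitochondrial genes gave 906 and 939, and 738 and 922. Counts not set beside all genes, here or above, describe how stable the calls were and nothing particular to guidance genes. Between grafts, 0 were called, with 1 when 4 groups were fitted at once. For the difference of changes, 2 were called, with 0 without the filter, with the block, from all libraries, without mitochondrial genes, centred, by edgeR, with the block and centring, and without either set of doubted libraries, and 1 with the experiment as covariate, in Experiment 2 alone and by DESeq2. The pairing moved no other count by over 1.5 times. Leaving out 1 library gave 6 to 9, 14 to 22, 22 to 30, 0 to 0 and 0 to 2 calls. The block with centring and the exclusions of libraries by other cell types or by mitochondrial reads were chosen after seeing the data. Depth limits genes under about 3 reads a library, and post-graft libraries rest on as few as 9 cells.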
